A study of Mus musculus with 16 samples.

Results

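The p53 pathway was followed through 10 genes in preSC, mouse cells at a precancerous stage of small cell lung cancer. They were chosen by symbol: Trp53 itself, its family members Trp63 and Trp73, the regulators Mdm2, Mdm4 and Cdkn2a, and the targets Cdkn1a, Ccng1, Eda2r and Trp53inp1. All 10 were found among the 17655 listed genes. Per the labels, preSC are Chga-positive neuroendocrine cells of the lung. All cells studied are null for Rb1 and for Trp53 and carry 1 null allele of Rbl2, controls included. The 2 groups of 8 samples differ in the lentivirus: "empty" cells received the empty control vector and "Wnt5a" cells received lentiviral Wnt5a. Doxycycline (1 µg/mL) was present in both groups over the last 48 hours of culture. How many clones or infections stand behind each group is not given in the sources used here, and neither are the deleted exons of Trp53.

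p53 is a transcription factor that is stabilised by DNA damage and oncogenic stress and then switches on genes for cell cycle arrest, DNA repair and apoptosis. Mdm2, itself a target, marks p53 for degradation, Mdm4 blocks its activity, and the Arf product of Cdkn2a holds Mdm2 off p53. Loss of both Rb1 and Trp53 is the usual genetic start of small cell lung cancer.

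The empty samples carried 7526676 to 8181010 reads each and the Wnt5a samples 8743431 to 8859862. Within a group, samples 1 to 4 differed by about the sampling noise, as did samples 5 to 8, whereas samples from different sets differed more (index of dispersion 0.987 to 1.05 against 5.23 to 5.44). Each set of 4 was therefore averaged and counted as 1 library, A for the first set and B for the other, so that each group has 2 libraries. The labels do not say whether these came from separate cultures, so p-values measure only the spread between these libraries, which may be technical. Wnt5a rose from 122 ± 31.4 to 1279 ± 325 normalised reads (SD, n = 2 libraries; limma adjusted p = 0.0010). Rb1, null by label, was read at 3223 ± 8.73 in empty and 3193 ± 34.0 in Wnt5a libraries, and Rbl2 at 321 ± 4.56 and 351 ± 25.6. Gene-level counts do not show whether the deleted exons are covered. The neuroendocrine markers were abundant in both groups (8 of 8 listed; Chga 4043 ± 462 and 3403 ± 561, SD, n = 2). Of the 8, 7 were lower in Wnt5a (median log2 difference -0.12). Over all genes tested the median was 0.0026 and 50.7% were higher. None of the 8 passed in limma. Chga, Calca and Uchl1, all lower, passed with the replicate block, a fit within same-letter pairs of libraries (limma adjusted p = 0.013, 0.0060 and 0.021). In that fit 17.0% of all genes passed, 8.27% being lower. The part of the marker shift in the results was not tested. Markers of leukocytes, endothelium and other lung epithelium summed to at most 52.7 normalised reads per library in each list. Of 5 fibroblast markers 4 stayed under 10 in every library. The fifth, Dcn, was at 597 and 340.2 in empty and 241 and 246 in Wnt5a libraries (adjusted p = 0.131 in limma and 0.014 in the blocked fit), and the part of Dcn-expressing cells in the results was not tested.

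The stretches upstream of the members' transcription starts are shown first, because p53 acts through a DNA element made of 2 half-sites of 10 bases, and they show which members hold such a match near their start. The 250 bases before each start came from RefSeq (GRCm38.p6), in which 8 of the 10 members had 1 or 2 starts (12 in all). Trp63 and Trp53inp1 were not matched there. Capitals mark each match to the p53 half-site consensus, which reads the same on both strands.
Trp53 (chr11:69580109-69580358, plus strand): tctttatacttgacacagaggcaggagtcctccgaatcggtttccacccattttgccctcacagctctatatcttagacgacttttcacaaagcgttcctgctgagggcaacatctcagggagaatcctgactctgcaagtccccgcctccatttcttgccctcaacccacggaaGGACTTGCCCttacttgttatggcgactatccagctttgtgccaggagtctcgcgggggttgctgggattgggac
Mdm2 (chr10:117710759-117711008, minus strand): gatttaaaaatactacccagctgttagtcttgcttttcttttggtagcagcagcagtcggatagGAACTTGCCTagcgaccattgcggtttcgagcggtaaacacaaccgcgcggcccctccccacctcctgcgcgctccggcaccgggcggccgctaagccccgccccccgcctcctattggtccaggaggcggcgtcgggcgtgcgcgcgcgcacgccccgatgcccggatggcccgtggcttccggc
Cdkn1a, upstream start (chr17:29090729-29090978, plus strand): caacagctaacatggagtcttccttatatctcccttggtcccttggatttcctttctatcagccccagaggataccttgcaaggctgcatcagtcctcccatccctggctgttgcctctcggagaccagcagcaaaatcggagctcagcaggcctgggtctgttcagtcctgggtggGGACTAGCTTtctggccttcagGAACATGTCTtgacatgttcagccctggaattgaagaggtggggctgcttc
Ccng1 (chr11:40755287-40755536, minus strand): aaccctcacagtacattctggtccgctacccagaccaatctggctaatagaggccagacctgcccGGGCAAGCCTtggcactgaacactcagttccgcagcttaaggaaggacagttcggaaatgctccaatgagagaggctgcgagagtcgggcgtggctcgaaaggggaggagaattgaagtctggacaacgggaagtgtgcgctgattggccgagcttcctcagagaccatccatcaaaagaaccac
Eda2r (chrX:97377210-97377459, minus strand): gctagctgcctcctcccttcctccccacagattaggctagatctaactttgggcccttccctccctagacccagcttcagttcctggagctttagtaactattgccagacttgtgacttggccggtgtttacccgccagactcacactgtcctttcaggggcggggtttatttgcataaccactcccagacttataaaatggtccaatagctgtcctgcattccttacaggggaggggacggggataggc
A match was found in 4 of the 12 windows and in 4 of the 8 genes, against 7.13% of 32851 windows of the same length and 8.20% of genes in RefSeq. The members were chosen as genes of the p53 pathway, so a higher share among them is no support. Cdkn1a had 2, beginning 73 and 51 bases before its upstream start, and none before its other start. Ccng1 had its match 185 bases, Mdm2 186 bases and Trp53 75 bases before the start. The Eda2r window is shown because this gene changed most, and it held none. Windows of Mdm4, Cdkn2a and Trp73 held none either. A match is a description of these letters and says nothing of binding.

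Levels of different genes were compared per length, as normalised reads per kilobase of merged exons (GENCODE M21). Cdkn2a, which encodes the cyclin kinase inhibitor p16Ink4a and, from another first exon, p19Arf, stood highest, at 732 to 849 across the 4 libraries. Cdkn1a, which encodes the cyclin kinase inhibitor p21, followed at 347 to 414. These levels placed them above 97.2% and 92.4% of 12225 tested genes in the empty libraries. Mdm2 (144 to 157), Trp53inp1 (114 to 136) and Mdm4 (94.4 to 110.03) came next, then Ccng1 (64.3 to 87.7), near the median tested gene of 70.6 per kilobase in empty libraries. Trp73 (14.7 to 33.3) and Trp53 (16.02 to 24.1) overlapped across the libraries. Trp73 was above Trp53 in Wnt5a libraries A (33.3 against 20.9) and B (28.4 against 24.1). In the empty group it was above Trp53 in library B (19.7 against 17.3) and below it in library A (14.7 against 16.02). Eda2r (0.0934 to 5.501) and Trp63 (at most 0.0558) were lowest. Each of the other neighbours in this order was apart in the 4 libraries. Eda2r and Trp63 rest on 6 and 2 reads in the empty libraries, so these counts do not settle their order there. p16Ink4a and p19Arf share exons, and gene-level counts do not separate them.

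**Figure D1:**
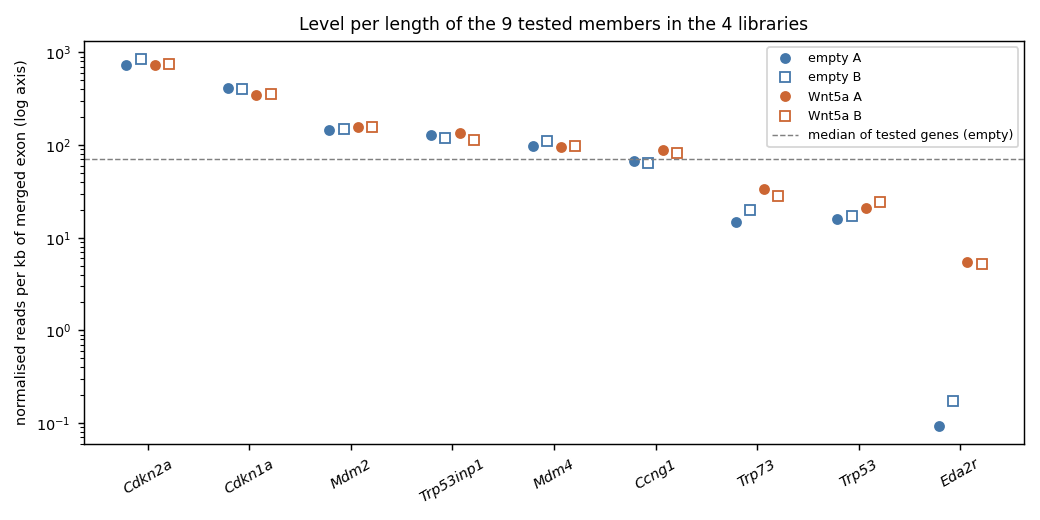
Normalised reads per kilobase of merged exon (log axis) for the 9 tested members in the 4 libraries, blue for empty and orange for Wnt5a, filled circles for library A and open squares for library B. Cdkn2a and Cdkn1a stand at the top, Trp73 and Trp53 overlap below the dashed median of tested genes, and Eda2r is split between the groups.

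Trp53, the gene deleted by label, was still read in every sample. Its normalised read count had a lowest, median and highest sample of 59.6, 66.9 and 78.8 in empty and of 66.9, 86.8 and 119 in Wnt5a cells. The ranges of the samples overlap, although both Wnt5a libraries (84.5 and 97.3) lay above both empty libraries (64.8 and 70.0). The counts rest on 235 and 275 reads in the empty and 360 and 415 reads in the Wnt5a libraries. Per length, Trp53 stood above only 15.9% of tested genes in the empty libraries. Gene-level counts do not show which exons these reads cover, and with RNA from whole cultures fewer cells with a transcript and less of it per cell cannot be told apart. The mean was 67.4 ± 3.71 against 90.9 ± 9.04 (SD, n = 2), empty first. The log2 difference of 0.42 (SE 0.13) did not pass in limma (adjusted p = 0.187) but did with the replicate block (adjusted p = 0.032). The median tested gene of its chromosome, 11, differed by 0.17. With chromosome medians removed its difference was 0.25 (limma adjusted p = 0.565).

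The 3 tested genes on either side of Trp53 in RefSeq order did not pass in limma, with or without the block. Wrap53, the adjacent gene with a start next to that of Trp53, had a log2 difference of 0.14 (SE 0.09, limma adjusted p = 0.570). Atp1b2 on the other side had -0.04 (adjusted p = 0.956). Dnah2, Efnb3, Sat2 and Fxr2 had differences between 0.11 and 0.39. GENCODE M21 gives no gene whose exons overlap those of Trp53.

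Its relatives Trp63 and Trp73 encode transcription factors that bind the same DNA element and serve mainly in epithelial and neural development. Trp63 gave 4 reads in all 16 samples, with 1, 1, 2 and 0 in the 4 libraries, at or below the floor of 3 reads, and was not tested. Trp73 was at a lowest, median and highest sample of 73.0, 98.5 and 115 in empty and of 142, 177 and 189 in Wnt5a cells. All 8 Wnt5a samples lay above all 8 empty samples. The means were 95.3 ± 19.4 and 171 ± 19.1 (SD, n = 2), a 1.79-fold ratio. The log2 difference was 0.85 (SE 0.16), which limma placed just outside the threshold (adjusted p = 0.062, and 0.011 with the replicate block). On the recovered reads edgeR with TMM did not call it (adjusted p = 0.062), while DESeq2 did (adjusted p = 0.00080). Without either empty library the limma fit called it too, at 0.64 without library A (adjusted p = 0.014) and 1.05 without library B (adjusted p = 6.95e-05), and without either Wnt5a library it did not. By pair, library A gave 1.17 and library B 0.53. An antisense transcript, Trp73os, overlaps its exons, and the strand setting of the counting is not given.

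**Figure D2:**
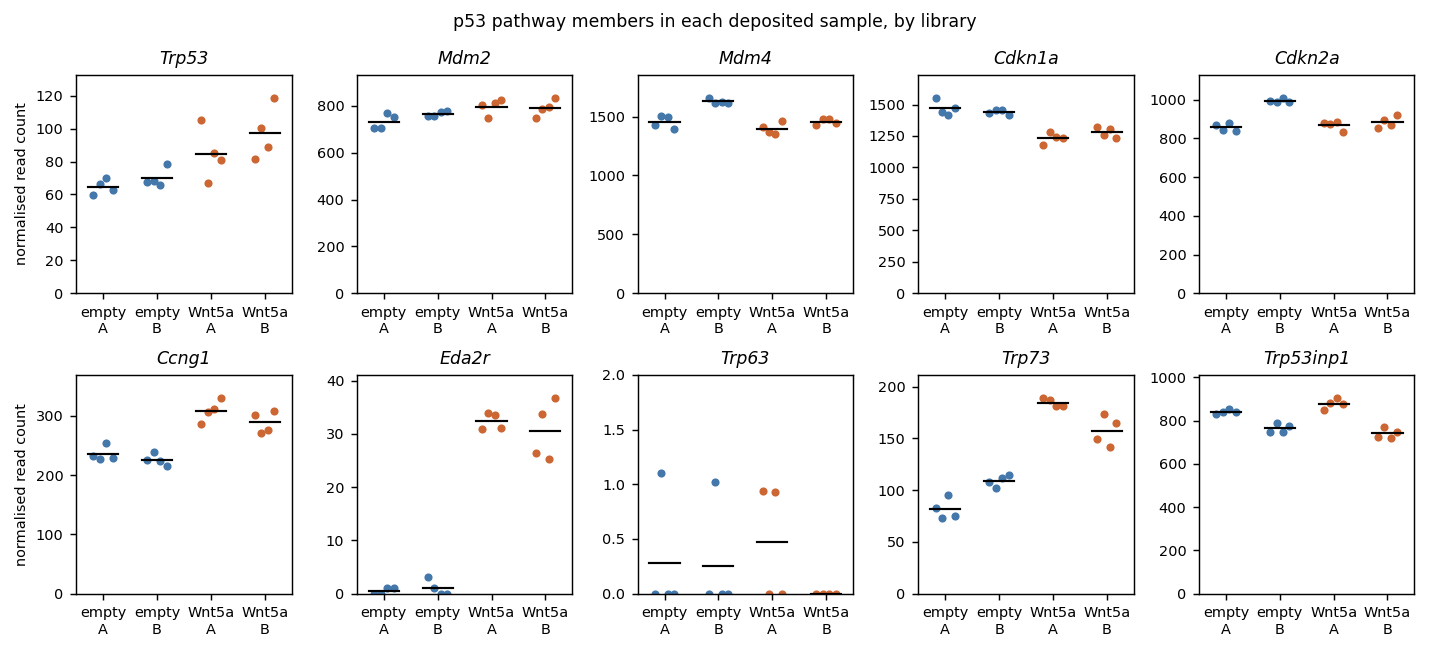
Normalised read count of the 10 members in each of the 16 samples, in 4 columns for the libraries empty A, empty B, Wnt5a A and Wnt5a B; bars are library means and each vertical axis starts at 0. Eda2r, Trp73, Ccng1 and Cdkn1a have no overlap between groups, and Trp63 holds single reads.

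Of the 9 members tested, 1 passed in limma without the block, against 2.06% of the 12357 genes tested in either direction (1.38% higher and 0.672% lower in Wnt5a). That gene is Eda2r, which passed the filter on low values only through the Wnt5a group, so the count is no support. With the replicate block 5 members passed, Eda2r among them, 4 higher and 1 lower, against 17.0% of genes (8.68% higher and 8.27% lower). An unadjusted limma p under 0.05, without the block, was found for 5 of the 9 members, Eda2r among them, against 16.1% of genes. The samples of the groups did not overlap for 4 members, Eda2r among them, against 12.4% of genes. As Eda2r had to differ through the filter, its part in these counts is no support. The median log2 difference of the 9 members was 0.08, against 0.0026 over all genes tested. Of all genes tested 50.7% were higher. Among the genes called in limma without the block 171 were higher and 83 lower. With chromosome medians removed 118 of the called genes were higher and 89 lower.

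The regulators of p53 showed small differences. Mdm2, the ubiquitin ligase that targets p53, had a lowest, median and highest sample of 704, 757 and 779 in empty and of 749, 799 and 834 in Wnt5a cells. The samples overlap, and the log2 difference of 0.08 had a 95% interval from -0.09 to 0.26 (limma adjusted p = 0.675). Mdm4, the related inhibitor, ran from 1396 over 1558 to 1657 in empty and from 1350.1 over 1439 to 1477 in Wnt5a samples. Empty library B (1628) stood above the other 3 libraries (1397 to 1458). Its log2 difference of -0.11 had an interval from -0.31 to 0.09 (limma adjusted p = 0.617). It was -0.03 without empty library B and -0.19 without empty library A. Mdm4 lies on chromosome 1, with a median of -0.17, and without the chromosome medians its difference was 0.06 (adjusted p = 0.857).

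Cdkn2a showed the same single high library. Its lowest, median and highest sample were 839.9, 932 and 1009 in empty and 834, 877 and 920.1 in Wnt5a cells. Empty library B was at 995, while empty A, Wnt5a A and Wnt5a B were at 858, 868 and 884. The log2 difference was -0.08, with an interval from -0.29 to 0.14 (limma adjusted p = 0.777), and without empty library B it was 0.03.

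Among the targets, Cdkn1a was lower in Wnt5a cells by a small step. Its lowest, median and highest sample were 1416, 1448 and 1552 in empty and 1182, 1249 and 1323 in Wnt5a cells, with no overlap. The means were 1456 ± 22.3 and 1257 ± 31.2 (SD, n = 2), a ratio of 0.863. The log2 difference of -0.21 (SE 0.07) did not pass in limma (adjusted p = 0.201) and passed with the replicate block (adjusted p = 0.023). Both pairs of libraries gave the same direction, -0.25 for A and -0.17 for B, and the median of its chromosome 17 was -0.01. A GENCODE M21 gene on the opposite strand, AC167363.2, shares 273 exon bases with Cdkn1a, and the strand setting of the counting is not given.

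Ccng1, which encodes cyclin G1, a partner of a phosphatase that acts on Mdm2, was higher in Wnt5a cells. Its lowest, median and highest sample were 215, 229 and 253 in empty and 271, 304 and 329.6 in Wnt5a cells, with no overlap. The log2 difference was 0.37 (SE 0.09; adjusted p = 0.108 in limma and 0.010 in the blocked fit). Ccng1 lies on chromosome 11, like Trp53, and with chromosome medians removed the difference was 0.20 (adjusted p = 0.485). Of the 4 members with a half-site match upstream, Cdkn1a was lower, while Ccng1, Trp53 and Mdm2 were higher. Mdm2 (0.08) passed in neither fit. The part of the matches in these directions was not tested.

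Trp53inp1, which encodes a stress protein of autophagy and apoptosis, ran from 747 over 811 to 856 in empty and from 721 over 811 to 904 in Wnt5a samples. Library A was above library B in both groups (842 and 765 in empty, 879 and 741 in Wnt5a). The groups overlap, with a log2 difference of 0.01 and an interval from -0.24 to 0.26 (limma adjusted p = 0.982); median centring turned it to -0.011.

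**Figure D3:**
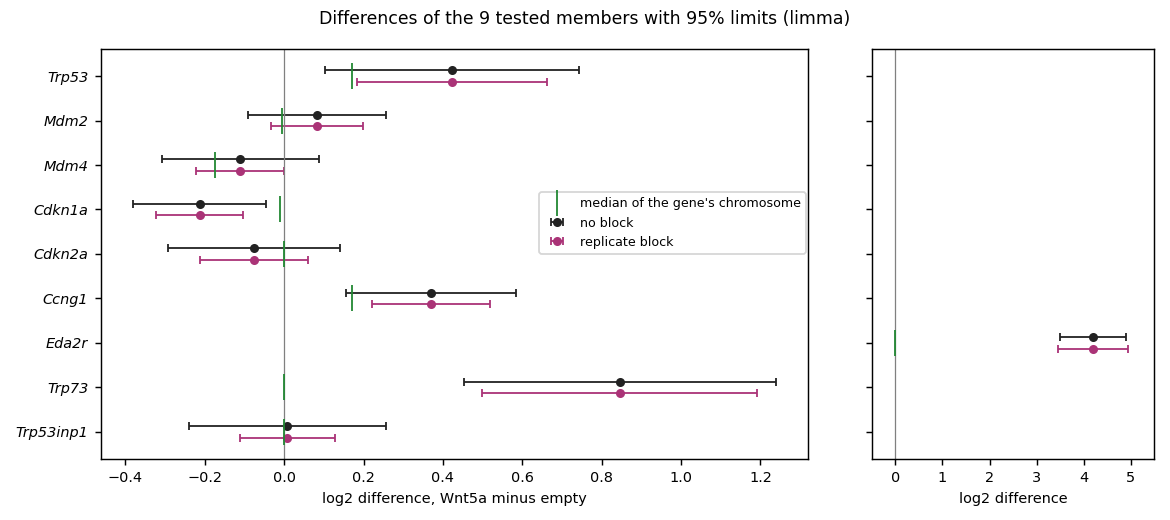
Log2 difference, Wnt5a minus empty, of the 9 tested members with 95% limits from limma, black without and purple with the replicate block; green ticks are the median difference of all tested genes on the member's chromosome. Eda2r has its own panel at 4.20, and the intervals of Mdm2, Mdm4, Cdkn2a and Trp53inp1 cover 0 in both fits.

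Eda2r, the receptor for the ectodysplasin form EDA-A2 and a p53 target, was nearly absent from empty cells. Its lowest, median and highest sample were 0, 0.508 and 3.06 in empty and 25.2, 32.3 and 36.7 in Wnt5a cells. These rest on 2 and 4 reads in the empty libraries A and B, against 138 and 130 reads in the Wnt5a libraries. The mean level was 0.785 ± 0.332 in the empty and 31.4 ± 1.36 in the Wnt5a group (SD, n = 2). The ratio of levels was 39.6, with a 95% counting interval (exact, Clopper-Pearson) from 17.9 to 109 that covers counting error only. Eda2r rose by 4.20 on the log2 scale (SE 0.29; adjusted p = 0.0013 in limma and 0.00071 in the blocked fit). That size depends on the pseudocount of 1: it was 5.21 with 0.1 and 1.94 with 10, past the threshold each time. Eda2r passed the filter on low values only through the Wnt5a group, so a gene of this kind had to differ.

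A neighbouring gene of Eda2r on the X chromosome was also near 0 in the empty libraries. Pgr15l, the listed gene before it in RefSeq order, had 8 and 2 reads in the empty and 148 and 111 reads in the Wnt5a libraries. Like Eda2r, it passed the filter on low values only through the Wnt5a group, so a gene of this kind had to differ. The next gene outward did not follow. Gpr165 was at 108 and 85.8 in empty and 136 and 105 in Wnt5a libraries (limma adjusted p = 0.480). Both Pgr15l and Eda2r were near 0 in both empty libraries, and the part of their neighbourhood in the Eda2r difference was not tested. The median tested gene on the X chromosome differed by -0.01.

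**Figure D4:**
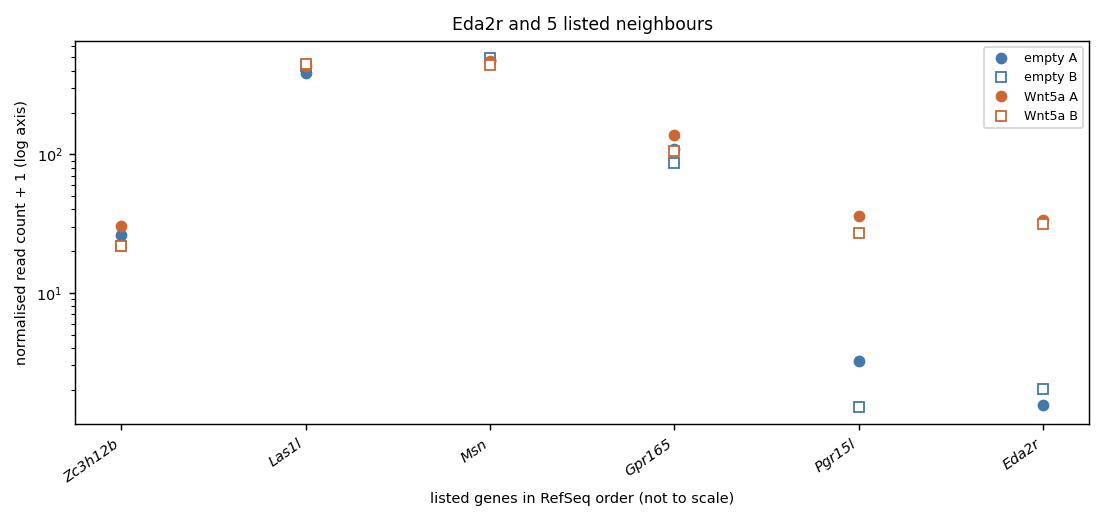
Normalised read count plus 1 (log axis) of Eda2r and 5 listed genes that precede it in RefSeq order, with the 4 libraries as in the plot of levels per length. Pgr15l and Eda2r are low in both empty libraries and higher in both Wnt5a libraries, while Gpr165 is at similar levels in both groups.

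Other direct targets of p53 were followed in 3 lists of 48 genes, of which 38 were tested. None passed in limma, while 3 of 38 had an unadjusted p under 0.05, against 16.1% of all genes. Among these 38 edgeR called 0 and DESeq2 called 1, Perp, against 246 and 538 of all 12357 genes. Of the 38, 19 were higher and 19 lower in Wnt5a, with a median log2 difference of -0.01 and a largest size of 0.62. With the replicate block 6 of 38 passed, 1 higher and 5 lower, against 17.0% of all genes. Fas and Rprm are not analysed here.

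The arrest and stress list had 13 tested genes, 7 higher and 6 lower, with a median of 0.0017 that turned to -0.017 with median centring, -0.12 without empty library A and -0.07 without Wnt5a library B. Its most abundant members were Btg2, an antiproliferative factor, at 1518 ± 125 and 1319 ± 105, Zmat3, an RNA-binding protein, at 422 ± 14.9 and 425 ± 2.24, and Sesn1, a sestrin that restrains mTORC1, at 357 ± 55.5 and 291 ± 19.9 (SD, n = 2). Btg2 (-0.20) and Sesn1 (-0.29) were the 2 that passed with the block (limma adjusted p = 0.021 and 0.030), and neither passed without it. The samples of the groups overlap for both. Btg2 lies on chromosome 1, with its median of -0.17.

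In the apoptosis list 8 of 12 tested genes were higher and 4 lower, with a median of 0.06. Without Wnt5a library B the median was -0.05 (5 higher, 7 lower), and without empty library A it was -0.0058 (6 and 6). Trp53i11 was at 1634 ± 140 and 1828 ± 0.0484, Ei24 at 1532 ± 56.3 and 1417 ± 69.8, and Bax, the pore-forming effector, at 550.1 ± 56.8 and 567 ± 57.9 (SD, n = 2). None of these passed with or without the block. Perp, a desmosomal membrane protein, was at 108 ± 4.76 and 70.02 ± 7.03, with no overlap between the samples of the groups. Its log2 difference was -0.62 (SE 0.13; adjusted p = 0.073 in limma and 0.0081 in the blocked fit). The death receptor gene Tnfrsf10b (-0.46) and the exonuclease gene Aen (0.25) also passed with the block only (limma adjusted p = 0.047 and 0.046). Perp, Tnfrsf10b and Aen were named after their values were seen.

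The DNA repair and metabolism list had 13 tested genes, 4 higher and 9 lower, with a median of -0.07. Fuca1, a lysosomal fucosidase, was at 498 ± 15.9 and 481 ± 29.8, Ppm1d, the phosphatase that turns the p53 response off, at 458 ± 6.71 and 506 ± 43.9, and Rrm2b, the p53-inducible ribonucleotide reductase subunit, at 405 ± 4.97 and 415 ± 13.8 (SD, n = 2). The samples of the groups overlap for each of these. Ak1, an adenylate kinase named after its value was seen, was the 1 gene that passed with the block, at -0.27 (limma adjusted p = 0.036, and 0.217 without it).

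Of 33 further regulators of p53, 31 were tested and 0 passed in limma. Among these edgeR called 0 and DESeq2 called 1, against 246 and 538 of all 12357 genes. An unadjusted p under 0.05 was found for 5 of 31, against 16.1% of all genes. Their median log2 difference was 0.03, with 17 higher and 14 lower. The ribosomal proteins Rpl5 and Rpl11, which bind Mdm2, were the most abundant, at 3279 ± 89.6 and 3982 ± 174 for Rpl5 and 3140.0 ± 329 and 3737 ± 486 for Rpl11 (SD, n = 2). Both passed with the block, Rpl5 at 0.28 (limma adjusted p = 0.0071) and Rpl11 at 0.25 (adjusted p = 0.011). Usp7, the deubiquitinase of Mdm2 and p53, was at 2060.1 ± 90.4 and 2102 ± 38.4 and passed in neither fit. With the block 9 of 31 regulators passed, 5 higher and 4 lower, against 17.0% of all genes. The DESeq2 call was Kat5, an acetyltransferase of p53 named after its value was seen, at 0.44 (adjusted p = 0.067 in limma and 0.0074 in the blocked fit), on chromosome 19 with its median of 0.36.

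Cell cycle genes that p21 and the DREAM repressor complex hold down were higher in Wnt5a cells in 19 of 20 cases (18 with median centring or in the count tools), with a median log2 difference of 0.16 against 0.0026 over all genes. None passed in limma, and 3 of 20 had an unadjusted p under 0.05, against 16.1% of all genes. In this list edgeR called 0 and DESeq2 called 3, against 246 and 538 of all 12357 genes. With the block 8 of 20 passed, all higher, against 8.68% of all genes higher. Top2a, the mitotic topoisomerase, was at 8728 ± 684 and 11166 ± 271 (SD, n = 2), a log2 difference of 0.36 (adjusted p = 0.127 in limma and 0.00935 in the blocked fit). Mki67 was at 7932 ± 146 and 7559 ± 1118, and Prc1, a spindle midzone protein, at 2953 ± 217 and 3272 ± 183, and neither passed. The DESeq2 calls were Top2a, Aurkb and Birc5, all on chromosome 11. Their log2 differences were 0.36, 0.46 and 0.56, beside the chromosome median of 0.17. With chromosome medians removed the median of the list was 0.15. Only these 3 of the 20 genes lie on chromosome 11, so this step could move the list median little. The part of the chromosome in the 3 calls was not tested. Within pairs the median was 0.18 for the A libraries (20 of 20 higher) and 0.11 for the B libraries (18 of 20). Leaving out 1 library, which breaks the pairs, moved it: without empty library A the median was 0.02, with 12 of 20 genes higher, and without Wnt5a library B it was 0.06. In the empty group itself library B exceeded library A by a median of 0.26.

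**Figure D5:**
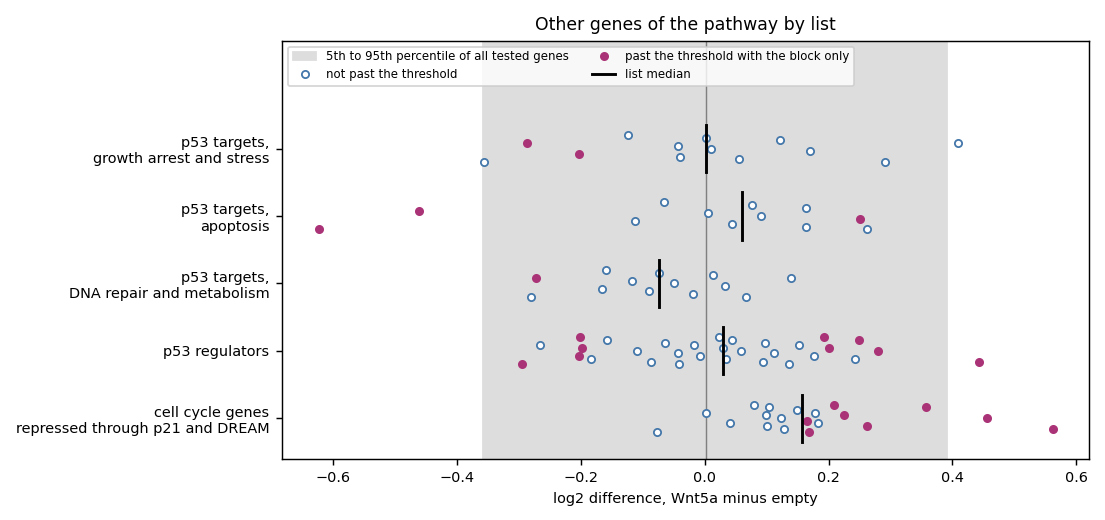
Log2 difference, Wnt5a minus empty, of each tested gene of the 5 lists; filled points passed with the replicate block only, open points passed in neither fit, black bars are list medians and the grey band spans the 5th to 95th percentile of all tested genes. The target lists are spread around 0, and 19 of the 20 cell cycle genes lie to the right of 0.

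Genes with profiles most like those of Trp53 and Cdkn1a were taken by the root-mean-square distance of centred log2 values over the 4 libraries, among 10767 genes. Nearest to Trp53 were Shmt2, a mitochondrial serine enzyme (distance 0.014), Rpl22l1, Rack1, Snhg8 and Zfp593 (at most 0.025). Their log2 differences lay between 0.39 and 0.45, beside 0.42 for Trp53, and 4 of these 5 passed with the block (limma adjusted p = 0.0014 to 0.042); the choice by profile fixes their direction. Nearest to Cdkn1a were Tmem9, Tgfbrap1, Pex19, Fam122b and Cdh22 (0.0092 to 0.012), with log2 differences of -0.22 to -0.20 beside -0.21. Of these 5, 4 passed with the block (limma adjusted p = 0.024 to 0.033), and here too the choice by profile fixes the direction. Tmem9, Tgfbrap1 and Pex19 lie on chromosome 1, with its median of -0.17. Rack1, near Trp53 in profile, lies on chromosome 11, with its median of 0.17. None of the 10 passed without the block. With 4 libraries such closeness is a description of these samples.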

How the data were processed

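RNA was sequenced from 8 empty and 8 Wnt5a samples, after poly(A) capture and NEBNext Ultra library preparation from 500 ng of RNA each, per the labels. TopHat, Bowtie, HTSeq and DESeq2 are named in the submitters' processing notes; genome build, annotation and strand setting are not given in the sources used here. The authors deposited 1 normalised signal value per gene and sample. In every file 100% of these values were whole multiples of 1 step (0.934 to 1.11; tolerance 1e-06), so read counts were recovered by dividing the deposited signal by that step. The value of 1 read is 1 step, and fewer than 3 reads were treated as below the floor; floors and intervals cover counting error only.

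Samples 1 to 4 and 5 to 8 of a group were averaged to libraries A and B. Genes with a mean value of at least 10 (12357) were compared by limma 3.58.1 (R 4.3.3; lmFit, eBayes with trend) on log2(value + 1), which understates the change of low genes, with Benjamini-Hochberg adjustment over all of them and a threshold of 0.05. Same-numbered samples of the groups deviated together from their group means (Pearson r 0.17 to 0.22 across genes in all 8 pairs). Only 1 of the 8 numbers correlated best with its own number, so these values show no pairing by number within a set. The differences between libraries A and B correlated between the groups (r = 0.44). A fit with libraries A and B as a block is therefore given where it changes a call. That fit leaves 1 residual degree of freedom per gene. For counts, edgeR 4.0.16 (quasi-likelihood, TMM) and DESeq2 1.42.0 were run on the recovered reads; edgeR called 246 genes. The limma, edgeR and DESeq2 fits without the block were tested on simulated data. The fit with the replicate block was not tested in this way.

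Genes named were the 10 members, Wnt5a, Rb1, Rbl2 and Chga from the labels, in each list up to 4 genes past the threshold and the 3 with the highest mean, the 3 tested neighbours on each side of Trp53, and the 5 genes nearest in profile to Trp53 and to Cdkn1a; others were named after their values were seen. The members and lists were chosen with earlier results of these data known. Chromosomes, gene order and upstream sequences came from RefSeq GRCm38.p6 (17620 of 17655 symbols matched, 379 by synonym) and exon lengths from GENCODE M21, without coordinates for the measured genes because the files name no build. Some genes are not reported here.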

Additional observations from a re-analysis of the deposited data

Results flagged for a closer look

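Cdkn1a in empty sample 1, at 1552 normalised reads, stood apart from the 7 other empty samples. Its gap to the next sample was 0.561 of the range of the group, above the 95% critical value of Dixon for 8 samples. This was the 1 case in 17 groups of member values with a mean of at least 10. Chance gives about 5% of such groups, and the 8 samples fall into 2 libraries.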

How the results depend on the processing

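Against 254 genes differing in the fit as reported, counting all 16 samples separately gave 4377, the replicate block 2095 and both together 6012; DESeq2 gave 538, edgeR without a filter 167, limma without the filter 146, with a minimum mean of 50 it gave 102, and eBayes without trend 158. Leaving out 1 library gave 138 to 1098 (the highest without empty library B, the lowest without Wnt5a library B; 493 without empty library A and 166 without Wnt5a library A; the lone library is then assumed to vary like the others). The cause was not tested.

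Counting 16 samples brought past the threshold Trp53 (0.41), Mdm2 (0.083), Mdm4 (-0.11), Cdkn1a (-0.21), Ccng1 (0.37) and Trp73 (0.85), and with the block also Cdkn2a (-0.076); these treat samples of 1 library as replicates. The replicate block alone did so for Trp53 (0.42), Cdkn1a (-0.21), Ccng1 (0.37) and Trp73 (0.85), and DESeq2 for Trp73 (0.84). The block changed no other call of a member. Direction turned for Mdm4 with chromosome medians removed (0.064) and for Trp53inp1 with median centring (-0.011). With 1 library left out Mdm4 lay at -0.19 to -0.030, Mdm2 at 0.051 to 0.12, Cdkn2a lay at -0.18 to 0.030 (above 0 without empty B), Trp53inp1 at -0.11 to 0.13 (-0.061 without empty B, -0.11 without Wnt5a A) and Trp73 at 0.64 to 1.05. Eda2r was called in each of the alternatives that tested it; a minimum mean of 50 removed it.

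Genes called were 0 in each list as reported. In the order arrest, apoptosis, repair, regulators and cell cycle, counting 16 samples gave 4, 6, 4, 12 and 11, the replicate block 2, 3, 1, 9 and 8, and both together 6, 8, 6, 19 and 18. DESeq2 gave 1 in apoptosis, 1 in regulators and 3 in cell cycle. With 1 library left out the lists gave 0 to 2, 0 to 1, 0 to 0, 0 to 2 and 0 to 4; these calls came without empty library B, the apoptosis call also without empty library A. Depth limits Eda2r and Trp63, which rest on 6 and 2 reads in the empty libraries.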

Other observations

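Libraries A and B also differed within the groups, in ways that the labels do not name. Trp53inp1 was lower in library B of both groups, by -0.14 in empty and -0.25 in Wnt5a cells on the log2 scale. Trp73 was higher in library B among empty cells (0.41) and lower in library B among Wnt5a cells (-0.23). The cell cycle list was higher in library B in 19 of 20 genes among empty cells (median 0.26) and in 18 of 20 among Wnt5a cells (median 0.17).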
